A study of Mus musculus with 16 samples.

Results

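S phase and mitosis genes were followed in fixed mouse liver through all probes of 55 genes, 23 that act in DNA synthesis and 32 that act in mitosis. The genes of the MCM helicase were left out. The members were found by matching the accession that the scanner files give for each probe to a RefSeq gene symbol, which gave 73 probes, 29 for S phase and 44 for mitosis, of 55681 probes on the array. A symbol could be given to probes of 20660 genes in all. Of the 55 genes, 40 had 1 probe, 12 had 2 and 3 had 3, and probes of 1 gene share its RNA and are not independent of each other.

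The cell cycle turns on these genes in 2 waves. E2F transcription factors, released when cyclin D and cyclin E kinases inactivate the retinoblastoma protein, switch on the enzymes that copy DNA. Later the DREAM and MuvB complexes, with B-MYB and FOXM1, control the mitotic genes through CDE and CHR promoter elements. Most hepatocytes of an adult liver are out of the cycle and re-enter it after injury or loss of tissue, so the RNA of both waves is scarce in resting liver.

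The series measured total RNA from paraffin-embedded liver. The animals were female mice of the B6C3F1 hybrid, a common choice in toxicology, bought at 5 to 6 weeks of age. The furan groups were dosed by gavage for 21 days with furan in corn oil (8 mg per kg), a volatile ring ether that cytochrome P450 of the liver oxidises to a reactive aldehyde, and the control groups received corn oil alone. Livers were taken 4 h after the last dose and kept in formalin for 18 h or 3 weeks, which gave 4 groups: control and furan livers at 18 h, and control and furan livers at 3 weeks. Every array set the RNA of 1 liver sample, in Cy5, against a pool of all samples, in Cy3, so each value is a log2 ratio of liver sample to that pool. The labels call the samples biological replicates, 4 in each group, numbered 2, 3, 4 and 6 in the 18 h controls and 41 to 44 in both furan groups. At 3 weeks the controls were numbered 2.1, 2.2, 4 and 6. From their numbers, arrays 2.1 and 2.2 were taken as the same animal and their mean was used, so 3 control samples remained at 3 weeks and 15 samples in all. RNA was taken from 1 section of each liver at 18 h but 2 sections at 3 weeks, and this cannot be told apart from the time in formalin. Per the labels the RNA was much degraded, with integrity numbers from 1.3 to 2.4. The 2 slides each carried 2 arrays of every group.

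To show what the members share in sequence, promoter windows of RefSeq (build GRCm38.p6), from 250 bases before to 50 bases after a transcription start, were searched on both strands for 3 motifs. They were the CHR element (TTTGAA), the CCAAT box (CCAAT) and an E2F site (GGCGGGAA or GGCGCGAA). Windows were found for 26 of the 32 mitosis genes and 17 of the 23 S phase genes. A CHR lay in 21 of the 28 mitosis windows, 75%, against 17.9% of all 32851 windows of 300 bases, and in 1 of the 19 S phase windows. A CCAAT box lay in 25 mitosis windows, 89.3%, and in 8 S phase windows, 42.1%, against 37.4% of all windows. The E2F letters lay in 5 S phase windows, 26.3%, and in no mitosis window, against 2.70% of all windows. All 21 mitosis windows with a CHR also held a CCAAT box, a pair found in 6.95% of all windows. The CHR and the CCAAT box overlapped in 1 mitosis window, that of Cdca8, and the E2F letters and the CCAAT box overlapped in 1 S phase window, that of Prim1. These matches are descriptions of letters and not of bound sites.

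The windows printed here belong to the 2 genes of each list with the smallest adjusted p for furan at 18 h, in lower case with the matches in capitals and read along the gene. They are Fen1, which has 2 listed windows (chr19:10204344-10204643 and chr19:10203872-10204171, minus strand, given in that order), Pcna (chr2:132253131-132253430, minus strand), Nek2 (chr1:191821223-191821522, plus strand) and Birc5 (chr11:117848987-117849286, plus strand). Fen1 shows a CHR on the opposite strand in 1 window and an E2F site on the opposite strand in the other, Pcna a CCAAT box on the opposite strand, Nek2 a pair of CCAAT boxes, and Birc5 none of these letters.
Fen1: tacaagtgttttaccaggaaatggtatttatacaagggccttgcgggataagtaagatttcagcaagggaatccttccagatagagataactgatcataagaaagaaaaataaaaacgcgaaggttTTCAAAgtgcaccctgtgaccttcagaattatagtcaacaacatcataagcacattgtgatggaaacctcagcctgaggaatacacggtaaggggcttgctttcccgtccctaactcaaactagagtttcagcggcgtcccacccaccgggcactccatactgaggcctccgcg
Fen1, other window: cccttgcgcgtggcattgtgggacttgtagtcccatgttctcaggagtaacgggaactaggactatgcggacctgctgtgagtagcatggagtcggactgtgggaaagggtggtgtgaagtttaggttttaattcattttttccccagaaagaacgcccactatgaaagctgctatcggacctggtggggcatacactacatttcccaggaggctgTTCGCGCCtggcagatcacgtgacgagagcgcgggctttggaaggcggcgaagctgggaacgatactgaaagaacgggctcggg
Pcna: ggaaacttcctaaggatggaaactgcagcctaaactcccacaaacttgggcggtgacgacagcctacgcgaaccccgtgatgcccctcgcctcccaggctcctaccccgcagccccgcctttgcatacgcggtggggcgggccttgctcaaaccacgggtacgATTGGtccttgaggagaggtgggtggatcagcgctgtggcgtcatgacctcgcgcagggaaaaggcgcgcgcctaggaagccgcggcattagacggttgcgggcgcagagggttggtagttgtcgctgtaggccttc
Nek2: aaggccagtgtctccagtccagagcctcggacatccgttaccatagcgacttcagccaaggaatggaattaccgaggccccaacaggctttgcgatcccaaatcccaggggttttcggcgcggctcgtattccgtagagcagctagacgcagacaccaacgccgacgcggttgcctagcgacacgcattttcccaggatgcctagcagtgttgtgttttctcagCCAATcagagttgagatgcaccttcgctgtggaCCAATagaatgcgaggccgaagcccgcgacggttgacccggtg
Birc5: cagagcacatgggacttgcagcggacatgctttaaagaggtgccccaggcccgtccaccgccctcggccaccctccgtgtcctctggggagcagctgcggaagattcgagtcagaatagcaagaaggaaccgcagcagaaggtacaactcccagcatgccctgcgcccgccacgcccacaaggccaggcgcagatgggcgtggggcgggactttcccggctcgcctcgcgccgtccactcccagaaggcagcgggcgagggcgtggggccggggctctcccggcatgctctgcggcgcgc

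The windows of Cdca8 (chr4:124936868-124937167, minus strand) and Cdk1 (chr10:69352863-69353162, minus strand) were added after the search to show the pair common to the mitosis genes. Cdca8 held 1 CHR and 4 CCAAT boxes, and Cdk1 held 2 CHR elements and 3 CCAAT boxes.
Cdca8: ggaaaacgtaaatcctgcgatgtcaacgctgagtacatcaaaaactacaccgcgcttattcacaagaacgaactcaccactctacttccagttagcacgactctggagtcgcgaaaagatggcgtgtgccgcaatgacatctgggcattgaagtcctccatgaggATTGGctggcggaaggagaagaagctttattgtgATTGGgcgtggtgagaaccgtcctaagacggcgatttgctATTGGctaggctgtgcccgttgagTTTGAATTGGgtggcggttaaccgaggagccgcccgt
Cdk1: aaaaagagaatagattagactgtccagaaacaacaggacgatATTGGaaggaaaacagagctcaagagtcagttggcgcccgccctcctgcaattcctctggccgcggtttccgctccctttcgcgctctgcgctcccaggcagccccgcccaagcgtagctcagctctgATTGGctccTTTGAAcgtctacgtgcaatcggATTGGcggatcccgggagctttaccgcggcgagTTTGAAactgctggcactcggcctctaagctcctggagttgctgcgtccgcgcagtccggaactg

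Windows with a CHR were set beside the response to furan. A CHR lay in 8 of the 10 windows of mitosis genes with a probe called higher with furan at 18 h, in 4 of the 5 windows of those not called, and in 9 of the 12 windows of those that were too dim to test. The 1 window of a gene with no probe called higher and a probe called lower, that of Nek2, held none.

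Many members were too dim to measure. A probe was counted as detected on an array where the scanner software marked it well above background in the liver channel, and 42 of the 73 member probes, 19 for S phase and 23 for mitosis, reached detection on 3 or more arrays in some group and were tested. Of the other 31 probes, 23 were detected on no array. Of the S phase genes, Ccne2 (a cyclin E), Cdc6 (which loads the helicase), Pola1 (DNA polymerase alpha) and Tyms (thymidylate synthase) were detected nowhere. Of the mitosis genes this held for 12, among them Top2a (topoisomerase II), Aurkb (the passenger kinase), Bub1, Bub1b and Ttk (spindle checkpoint kinases), and Kif11 and Kif23 (mitotic kinesins). Ccna2 (cyclin A), Ccnb2 (a cyclin B) and Kif20a (a kinesin of cytokinesis) were each detected on 1 furan array at 18 h and nowhere else. Gins2 (a replisome subunit) was detected on 2 furan arrays at each time and on no control array, and Pole (DNA polymerase epsilon) on 1 control and 2 furan arrays at 18 h.

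More member probes were detected with furan than without at 18 h. In 18 h controls 2, 3, 4 and 6 the count of detected S phase probes, of 29, was 14, 19, 18 and 14, and in furan samples 41 to 44 it was 22, 20, 20 and 20. The count of detected mitosis probes, of 44, was 13, 17, 17 and 10 in these controls and 22, 26, 23 and 25 in the furan samples. For both lists every furan array lay above every control array. The share of all probes detected moved the same way, from 44.3% to 50.1% in controls to 51.9% to 55.2% with furan. Set against that share, the mean over arrays rose from 47.3% to 53.7% for all probes, from 56.0% to 70.7% for S phase and from 32.4% to 54.5% for mitosis. These are descriptions, and no test compared the lists with the other probes.

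At 3 weeks fewer probes were detected in both treatments. S phase probes numbered 9, 7, 9 and 10 on control arrays 2.1, 2.2, 4 and 6 and 11, 12, 12 and 12 on furan arrays 41 to 44. Mitosis probes numbered 12, 10, 5 and 7 on these control arrays and 9, 15, 17 and 17 on the furan arrays. Furan arrays lay above control arrays for S phase, while for mitosis furan array 41 lay within the control range. For all probes the detected share ranged from 32.3% to 36.7% on control arrays and, overlapping these, from 35.9% to 41.4% on furan arrays.

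**Figure D1:**
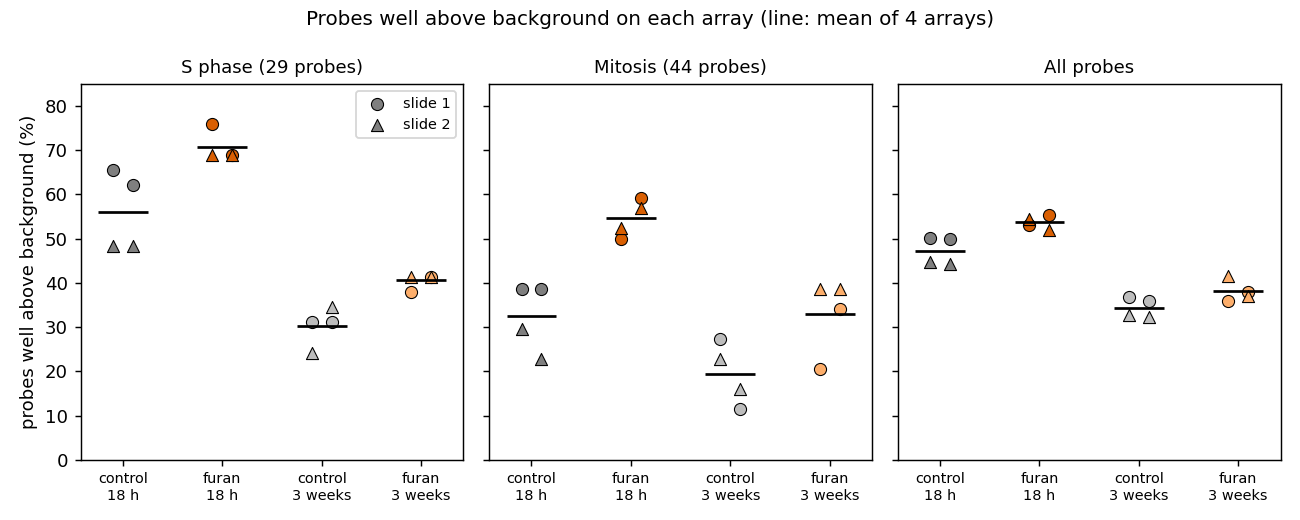
Share of probes well above background on each array, for 29 S phase probes, 44 mitosis probes and all probes, in percent. Points are arrays, circles on slide 1 and triangles on slide 2, and lines are means of 4 arrays; at 18 h every furan array lies above every control array in all 3 panels.

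Of the 44 mitosis probes, 5 were detected on all 4 furan arrays and on no control array at 18 h, 11.4%, against 1.02% of all probes. They were 2 probes of Cdk1 and 1 each of Ccnb1, Cdca8 and Cdca3, and among S phase probes Prim1 did the same. At 3 weeks Fen1 was the single member probe with that pattern, against 0.241% of all probes. A probe that was tested only because it is bright in furan livers is more likely to be called higher there. Of the 42 tested probes, 14 did not meet the detection rule in the 18 h controls. The rule was met in the 18 h furan group alone by 10 of the 42, not all of which were called. For this reason the counts that follow are read beside those of probes detected in both groups.

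In livers fixed for 18 h, probes of both lists were called in both directions with furan, and more of the calls were higher than lower where the whole tested set was counted. Limma with the slide as a term, at a Benjamini-Hochberg adjusted p under 0.05 over 29690 tested probes, called 10 S phase probes higher and 1 lower, of 19, and 11 mitosis probes higher and 3 lower, of 23. Of all probes tested, 20.4% were called higher and 26.8% lower. The median log2 difference between furan and control livers was 0.29 over the S phase probes and 0.26 over the mitosis probes, against -0.05 over all probes. Of 20 member probes detected on all 8 arrays, 7 were called higher (35%) and 4 lower (20%), against 20.8% and 33.3% of all such probes. Of these, the 11 S phase probes gave 4 higher, those of Pcna, Fen1, Rfc5 and Chaf1b, and 1 lower, that of Ccnd1. The 9 mitosis probes gave 3 higher, those of Birc5, Cdc20 and Racgap1, and 3 lower, those of Nek2, Foxm1 and Ccnb1. Of the 22 others, 14 were called higher (63.6%) and none lower, against 19.3% and 7.05% of all such probes. Groups without overlap were common at 18 h. With furan, 15 of the 42 member probes lay wholly higher and 4 wholly lower, against 5305 and 6330 of all 29690 tested. In whole liver, fewer cells of a type and less RNA per cell cannot be told apart.

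The count of mitosis probes called higher rested on single samples and on 1 slide more than the S phase count did. Without control 6 it was 7 and without furan sample 44 it was 6, while the S phase count stayed between 9 and 10 without any 1 sample. Within slide 1 alone, with 2 against 2 samples, limma called 3 S phase and 1 mitosis probes higher and 1 and 4 lower, and within slide 2 alone it called 7 and 10 higher and 1 and 2 lower. All 25 called probes had the same sign on both slides. They were picked by the fit over both slides together, which favours such agreement, so it is no separate support. With each array's share of detected probes as a covariate, a share that does not overlap between the groups, limma called 0 of the 42 member probes, 6 had an unadjusted p under 0.05, and 110 probes in all were called higher and 486 lower. The part of that share in the results was not tested further.

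The split of calls over all probes depended on the scaling. It was 43.2% higher after loess, 78.6% after centring each array on its median and 55.0% in the authors' deposited table, whose log base is not stated and was read as log2. The median of all probes moved from -0.05 to 0.10 with median centring. Relative to that median, the median of the 42 member probes was 0.33 after loess, 0.29 after median centring and 0.25 in the authors' values, and none of the 25 called probes changed its sign relative to it under any of the 4 other scalings.

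Among the regulators of entry into S phase, Ccne1, cyclin E, which partners CDK2, rose and Ccnd1, cyclin D, which partners CDK4 and CDK6, fell. The log2 ratio of Ccne1 was -0.15, -0.39, -0.51 and 0.44 in 18 h controls 2, 3, 4 and 6 and 0.54, 0.65, 0.61 and 0.53 in furan samples 41 to 44. The furan samples lay close together above all controls, and control 6 lay nearest to them. The difference was 0.73 (SE 0.15, limma adjusted p = 0.00275), with 1.04 on slide 1 and 0.42 on slide 2.

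Ccnd1 stood at 0.25, 0.53, 0.74 and 1.08 in the same controls and at -0.20, -0.07, -0.41 and -0.10 in the furan samples, with no overlap. It fell by 0.84 (SE 0.16, limma adjusted p = 0.00158), though after median centring its difference was -0.37 with an adjusted p of 0.0647. E2f1, a transcription factor of the S phase genes, differed by 0.24 (SE 0.11, adjusted p = 0.0959), with overlapping groups.

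Of the genes that license and start replication, Cdt1, which loads the MCM helicase onto origins, rose by 0.49 (SE 0.12, limma adjusted p = 0.00705), from a mean of -0.15 ± 0.25 to 0.34 ± 0.17 (SD, n = 4 each). Gmnn, geminin, which restrains Cdt1, stood at -0.01 ± 0.10 in both groups (SD, n = 4 each), a difference of -0.0005 (SE 0.09). The replisome genes Gins1, a subunit of the GINS part of the helicase, and Prim1, the primase subunit that starts new strands, rose by 0.60 (SE 0.14) and 0.63 (SE 0.11), with adjusted p of 0.0042 and 0.00112. Prim1 stood at -0.35, -0.33, -0.02 and -0.34 in controls, none of them well above background, and at 0.17, 0.58, 0.36 and 0.35 with furan. For a probe without signal above background in 1 group only a rough bound is given, taken from the Cy5 channel after loess and between-array scaling. It is open to dye bias since no dyes were swapped. The dim group is set at the weakest detected signal of each array, or at its own signal where that is higher. The bound compares group means and makes no allowance for error. It is printed, with the words at least, only where the probe was called and the bound does not exceed the fold of the log ratio itself. It did exceed that fold for some called probes, as for Cdca3 at 18 h (1.41 against 1.30), so it is not a strict limit. By this bound Prim1 was at least 1.32-fold higher.

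Fen1 and Pcna gave the 2 smallest adjusted p values of the S phase list. Pcna, the sliding clamp of the polymerases, stood at -0.35, -0.50, -0.11 and -0.26 in controls 2, 3, 4 and 6 and at 0.20, 0.29, 0.24 and 0.27 in furan samples 41 to 44. All furan samples lay within a narrow band above all controls, and the rise of 0.56 (SE 0.10, limma adjusted p = 0.000975) was 0.55 on slide 1 and 0.57 on slide 2. Fen1, the flap endonuclease that trims Okazaki fragments, stood at -0.23, -0.43, -0.47 and -0.31 in controls and at 0.23, 0.03, 0.43 and 0.72 with furan, again with no overlap, and rose by 0.71 (SE 0.10, adjusted p = 0.000305). Pcna has pseudogenes in the RefSeq table, and probe sequences were not mapped here.

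Of the clamp loader genes, Rfc5 rose by 0.29 (SE 0.09, adjusted p = 0.0224), a call lost without control 3, control 6, furan sample 42 or furan sample 43. Rfc3 differed by 0.15 (SE 0.11, adjusted p = 0.259). The 2 probes of Rfc4 differed by -0.13 (SE 0.14) and 0.16 (SE 0.09), neither of them called.

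The genes of nucleotide supply did not move together. Rrm2, the small subunit of ribonucleotide reductase, rose by 0.40 (SE 0.10, limma adjusted p = 0.00678), from 0.09, -0.19, 0.02 and -0.17 in controls to 0.41, 0.24, 0.45 and 0.26. Its large subunit Rrm1 differed by 0.11 (SE 0.10, adjusted p = 0.401). Tk1, thymidine kinase, differed by -0.28 (SE 0.11, adjusted p = 0.0538). Among the chromatin genes, Uhrf1, which keeps DNA methylation on new strands, rose by 0.63 (SE 0.17, adjusted p = 0.0123), although furan sample 41, at -0.19, lay among the controls. Chaf1b, a subunit of the chromatin assembly factor, rose by 0.32 (SE 0.09, adjusted p = 0.0126) by 1 probe and differed by 0.07 (SE 0.14) by the other.

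**Figure D2:**
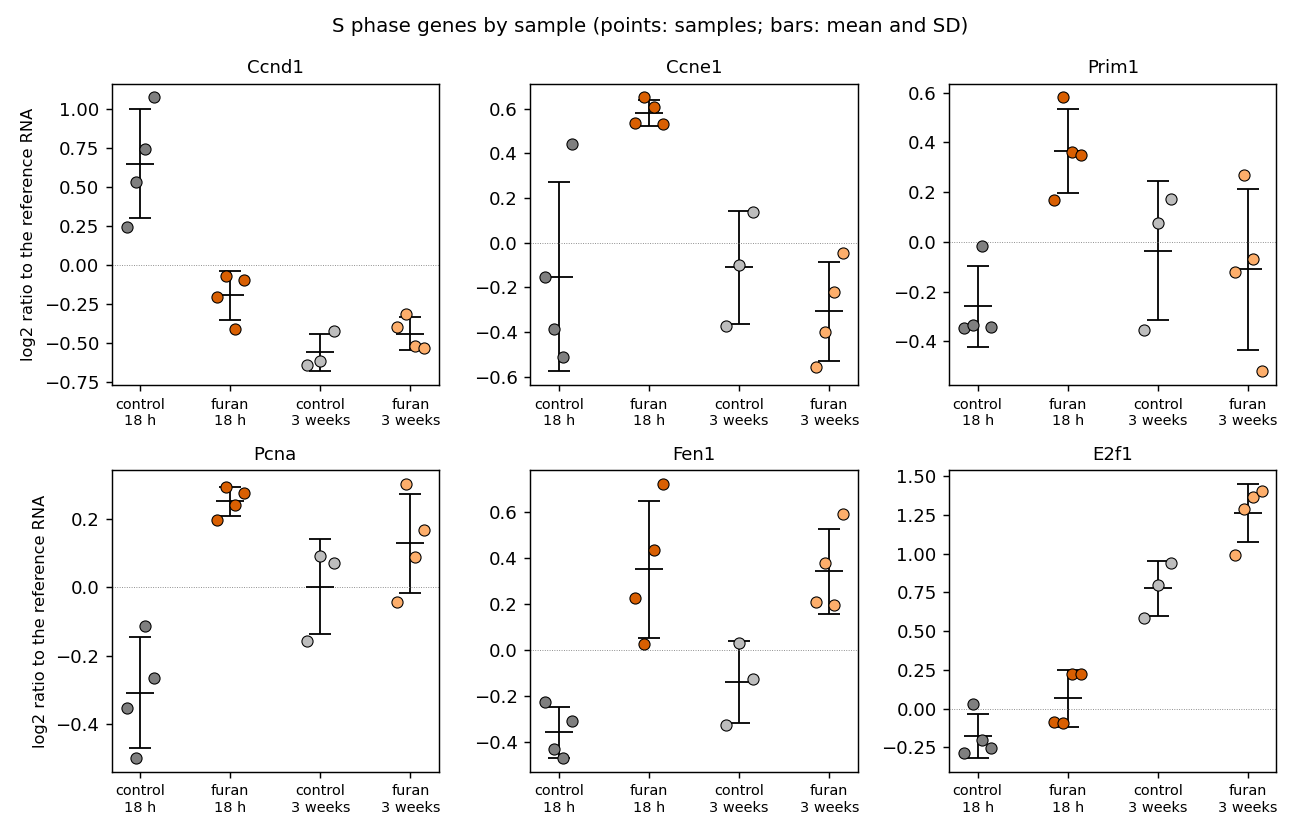
Log2 ratio to the reference RNA of 6 S phase genes in each of 15 samples; points are samples, the 3-week control 2 being the mean of its 2 arrays, and bars are means and SD. Ccnd1 lies lower and Ccne1, Prim1, Pcna and Fen1 lie higher in all 18 h furan samples than in the 18 h controls, while E2f1 overlaps.

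In the kinase that drives entry into mitosis, both tested probes of Cdk1 rose. The first, A_55_P2016652, stood at 0.08, -0.06, -0.19 and -0.28 in controls 2, 3, 4 and 6 and at 0.20, 0.18, 0.80 and 0.61 in furan samples 41 to 44. The second, A_55_P2048588, stood at -0.40, 0.05, -0.27 and -0.53 and at 0.30, 0.13, 0.62 and 0.52 in these samples. Neither probe overlapped between groups, and on both of them furan samples 43 and 44 lay highest. The differences were 0.56 (SE 0.12, limma adjusted p = 0.00381) and 0.68 (SE 0.14, adjusted p = 0.00293), and no control array showed either above background. For the first the rough bound was at least 1.36-fold higher. For the second none is given, since it exceeded the fold of the log ratio. The differences were 0.31 and 0.33 on slide 1 and 0.80 and 1.04 on slide 2, where adjusted p was under the threshold on slide 2 alone. The difference between the slides was not tested.

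The probes of Ccnb1, cyclin B, the partner of Cdk1, disagreed. A_55_P2065671 rose by 0.53 (SE 0.16, limma adjusted p = 0.0188), at least 1.43-fold, from -0.19, -0.34, -0.28 and -0.71 in controls, none above background, to -0.28, -0.00, 0.48 and 0.43 with furan, and furan sample 41 lay among the controls. That call was lost without furan sample 43 or 44 and on slide 1 alone. A_55_P2128668, above background on all 8 arrays, fell by 0.56 (SE 0.11, adjusted p = 0.00161), from -0.30, -0.27, -0.54 and -0.17 to -1.17, -0.78, -0.81 and -0.76, with no overlap. A_55_P1952256 differed by 0.20 (SE 0.18, adjusted p = 0.383). All 3 probes carry the accession of Ccnb1 in the scanner files. RefSeq also lists a pseudogene, Ccnb1-ps, and which transcript each probe reads was not settled here, so no direction is given for Ccnb1.

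Other regulators of entry did not follow Cdk1. Foxm1, the transcription factor of mitotic genes, stood at -0.89, -0.74, -0.79 and -0.78 in controls and at -1.57, -1.31, -1.09 and -0.92 with furan. The groups did not overlap and the difference was -0.42 (SE 0.12, limma adjusted p = 0.0128), but 0.004 after median centring, or -0.09 relative to the median of all probes, and -0.17 on slide 2, neither of which passed the test. Cdkn3, a phosphatase that acts on Cdk1, differed by -0.09 (SE 0.11, adjusted p = 0.535).

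Of the mitotic kinases, Nek2, which splits the centrosomes, stood at -0.51, -0.92, -0.63 and -0.49 in controls and at -1.78, -1.41, -1.04 and -1.13 with furan. It fell by 0.70 (SE 0.11, limma adjusted p = 0.000541) with no overlap, though after median centring its difference was -0.26 with an adjusted p of 0.135. Aurka, the Aurora kinase of the spindle poles, rose by 0.46 (SE 0.14, adjusted p = 0.0231), a call lost without any 1 of controls 2, 3 and 6 and furan samples 43 and 44. Plk1, polo-like kinase, differed by 0.26 (SE 0.12, adjusted p = 0.0926).

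Genes of the chromosomal passenger complex, which guides chromosome attachment and cytokinesis, rose by 3 of their 5 tested probes. Birc5, survivin, by probe A_55_P1983773, stood at -0.60, -0.52, -0.87 and -0.91 in controls 2, 3, 4 and 6 and at -0.34, -0.16, 0.35 and 0.30 in furan samples 41 to 44, with no overlap. That probe rose by 0.76 (SE 0.14, limma adjusted p = 0.00148), A_55_P1983769 rose by 0.50 (SE 0.15, adjusted p = 0.0190), and A_55_P1983768 differed by 0.17 (SE 0.09, adjusted p = 0.171). The call on A_55_P1983769 was lost without furan sample 44, on slide 1 alone and with Agilent's log ratios. Cdca8, borealin, rose by 0.58 (SE 0.12, adjusted p = 0.00241), at least 1.39-fold, by A_51_P155142, and its other probe differed by 0.01 (SE 0.10).

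The next genes were grouped here under the anaphase-promoting complex and mitotic exit. Cdc20, an activator of that complex, stood at -0.51, -0.54, -0.49 and -0.92 in controls and at -0.32, 0.38, 0.25 and 0.60 with furan. Furan sample 41 lay nearest to the controls and the groups did not overlap. It rose by 0.84 (SE 0.18, limma adjusted p = 0.00316). Cdca3, which helps to degrade the kinase Wee1, rose by 0.38 (SE 0.13, adjusted p = 0.0365), with no control array above background, although control 2, at 0.17, lay above furan sample 41, at 0.03. Ube2c, the ubiquitin-conjugating enzyme of that complex, differed by 0.06 (SE 0.14, adjusted p = 0.745).

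Of the spindle and cytokinesis genes, Prc1, which bundles midzone microtubules, rose by 0.39 (SE 0.13, adjusted p = 0.0330) and Racgap1, a subunit of centralspindlin, by 0.35 (SE 0.11, adjusted p = 0.0194). Tpx2, which activates Aurora A, differed by 0.03 (SE 0.16), and Cenpe, a kinetochore motor, by 0.04 (SE 0.17). The call on Prc1 was lost without any 1 of 7 of the 8 samples, all but control 4, that on Cdca3 without any 1 of controls 3, 4 and 6 and furan samples 42 and 44, and that on Racgap1 without control 4 or control 6. Mki67 encodes the Ki-67 antigen that marks cycling cells. By A_55_P2073377 it stood at 0.05, 0.10, 0.26 and -0.09 in controls and at 0.33, 0.49, -0.01 and 0.31 with furan. The groups overlapped, and the difference was 0.20 (SE 0.10, limma adjusted p = 0.115). The other probe of Mki67, A_51_P253803, was detected on 1 control and 2 furan arrays at 18 h and was not tested.

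**Figure D3:**
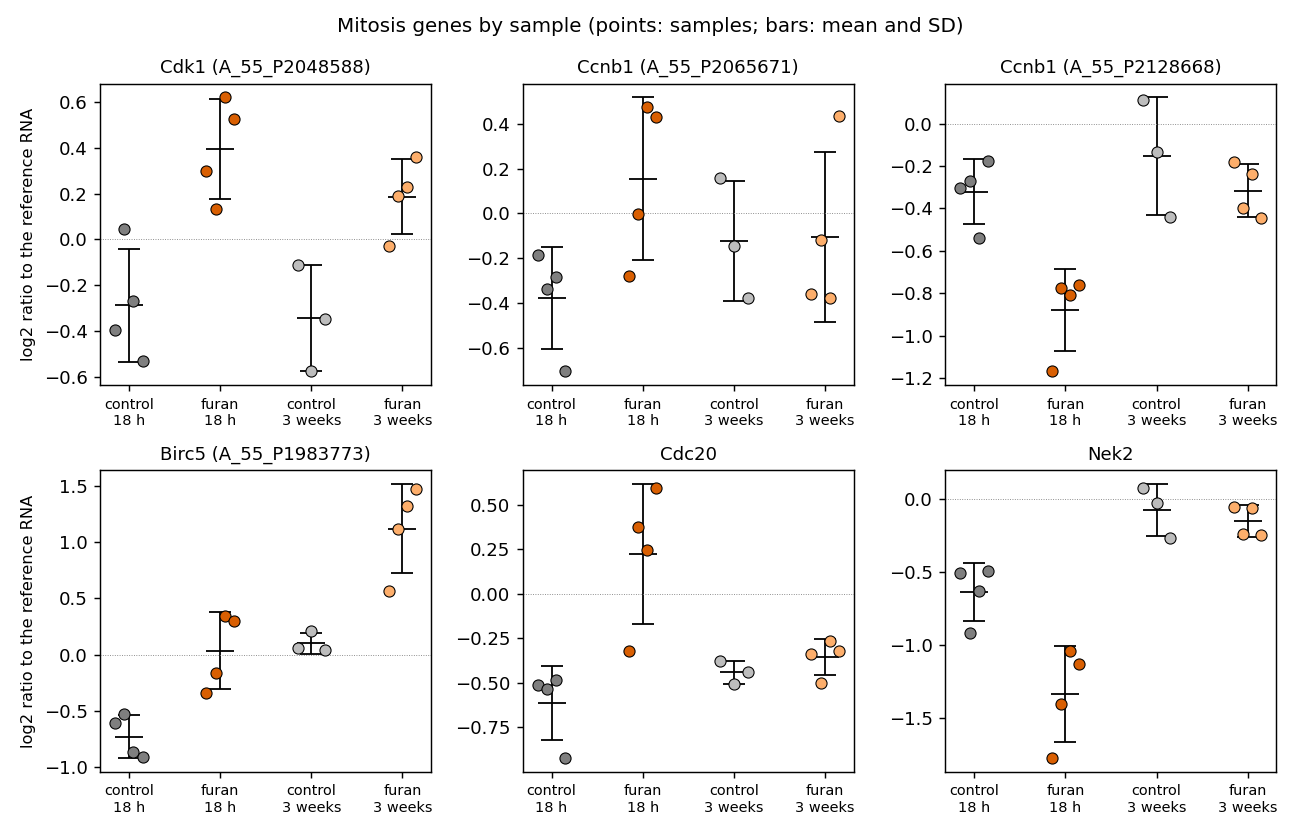
Log2 ratio to the reference RNA of 6 probes of mitosis genes in each of 15 samples; points are samples, the 3-week control 2 being the mean of its 2 arrays, and bars are means and SD. At 18 h the 2 probes of Ccnb1 move in opposite directions with furan, Cdk1, Birc5 and Cdc20 lie higher and Nek2 lies lower.

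Other genes of the cell cycle were set beside the members. Of all 29690 tested probes 20.4% were called higher at 18 h and 26.8% lower, and after median centring 9863 were higher and 2680 lower. No list was tested against these shares. Of 12 probes of cell cycle inhibitors, 8 were called higher at 18 h (66.7%) and 0 lower, the same counts under every other scaling tried. Limma called 4 higher on slide 1 alone, 3 on slide 2 alone and 1 with the share of detected probes as a covariate. Of those 8, Gadd45a, detected on 1 control array, and Btg2, detected on none, were tested through the furan livers at 18 h. Cdkn1a, the p21 inhibitor of cyclin kinases, rose by 1.89 (SE 0.09, limma adjusted p = 3.92e-06) by 1 probe and differed by 0.02 (SE 0.10) by its other. Rb1, the retinoblastoma protein, rose by 0.55 (SE 0.08, adjusted p = 0.000244), and Gadd45a, a damage-induced inhibitor of Cdk1, by 0.64 (SE 0.09, adjusted p = 0.000274).

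Of 34 probes of other G1/S and replication genes, 10 were called higher and 10 lower (29.4% each), against 20.4% and 26.8% of all probes. After median centring 18 were called higher and 5 lower. Ccnd2, another cyclin D gene, fell by 0.84 (SE 0.11, limma adjusted p = 0.000154), which does not speak for every cyclin D gene. Pold2, a subunit of DNA polymerase delta, fell by 0.63 (SE 0.10, adjusted p = 0.000697). Cdk4, the kinase that cyclin D drives, fell by 0.72 (SE 0.11, adjusted p = 0.000369) by 1 probe, while its other probes differed by 0.13 (SE 0.08) and 0.08 (SE 0.11).

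Of 28 probes of other G2/M genes, 9 were called higher (32.1%) and 4 lower (14.3%), against 20.4% and 26.8% of all probes. Hmmr, a spindle protein, fell by 0.95 (SE 0.08, limma adjusted p = 2.08e-05). Hjurp, the chaperone of the centromeric histone, fell by 0.85 (SE 0.09) and 0.59 (SE 0.08) by 2 probes, with adjusted p of 4.43e-05 and 0.000267, and differed by -0.31 (SE 0.13) by the third. Gtse1, a mitotic protein that opposes p53, rose by 0.76 (SE 0.13, adjusted p = 0.000715), though no control array showed it above background.

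Markers of cell types were read in the same fit, where 20.4% of all probes were called higher and 26.8% lower. The marker lists hold few probes, and none was tested against those shares. The 8 probes of hepatocyte genes were detected on all arrays, and 7 of them were called lower with furan at 18 h, with a mean log2 ratio of 0.60 to 0.74 in controls and -0.16 to -0.02 with furan. After median centring 3 were called lower and 1 higher. Of 10 probes of macrophage genes 4 were called lower and 0 higher, of 3 probes of B cell genes 2 lower and 0 higher, and of 4 probes of T and NK cell genes none was called. Stellate cell and fibroblast genes gave 2 probes called higher and 3 lower of 8, endothelial genes 1 higher and 3 lower of 6, biliary genes 1 lower of 2 and erythroid genes 3 lower of 6. After median centring the macrophage probes gave 4 higher and 3 lower, the endothelial probes 3 higher and 1 lower and the stellate probes 4 higher and 1 lower, so no direction is given for these lists. The mean level of the macrophage probes was -0.17 to 0.58 in 18 h controls and -0.31 to -0.16 with furan, and that of the B cell probes -0.34 to -0.17 and -1.05 to -0.41. The part of these shifts in the members' values was not tested.

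In livers fixed for 3 weeks no member probe was called with furan, with 4 furan samples against 3 control samples. Limma called 0 of 42, against 0.0876% of all probes higher and 0.0303% lower, and 11 member probes had an unadjusted p under 0.05, 26.2%, all of them higher with furan. Of all probes 13.8% had such a p, and 6.50% had it with a higher value. The detection rule was met by 24 of the 42 member probes in 3-week furan livers and by 16 in 3-week controls. Over all probes it was met by 19673 and 17806. Probes tested through the furan livers are more likely to lie higher there. The 11 were not split by detection, so no excess of the members is read from them. The median log2 difference was 0.06 over the S phase probes and 0.20 over the mitosis probes, against -0.0007 over all probes. With furan, 10 of the 42 member probes lay wholly higher and 1 wholly lower, against 2237 and 1737 of all 29690 tested. The split of the few calls over all probes was 74.3% higher after loess, 89.9% after median centring, 53.8% in the authors' deposited table and 45.4% without background subtraction.

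At 3 weeks Birc5 by A_55_P1983773, detected on all arrays, stood at 0.06, 0.21 and 0.04 in controls 2, 4 and 6 and at 0.57, 1.11, 1.32 and 1.47 in furan samples 41 to 44. The groups did not overlap, and the difference of 1.01 (SE 0.19) had a limma adjusted p of 0.0744. It passed the test after median centring (1.22, adjusted p = 0.000416), in the authors' values (0.96, adjusted p = 0.0230), without background subtraction (0.92, adjusted p = 0.0220) and without control 4 (1.19, adjusted p = 0.0202). It was called in 6 of 22 alternatives, the other 2 being slide 2 alone and arrays 2.1 and 2.2 as separate samples. It was not called with Agilent's log ratios, array weights, trended variances, the covariate or no slide term, nor without any 1 other sample. Its probe A_55_P1983768, detected on no control array, differed by 0.60 (SE 0.18) in values that include signal near background. A_55_P1983769 differed by -0.02 (SE 0.23), and neither was called.

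Mki67 by A_55_P2073377 stood at -0.37, -0.27 and -0.58 in 3-week controls 2, 4 and 6. In furan samples 41 to 44 it stood at -0.12, 0.04, 0.33 and 0.41, with no overlap. Its difference of 0.57 (SE 0.16) had a limma adjusted p of 0.190, and no control array at 3 weeks showed this probe above background. The other probe of Mki67, A_51_P253803, was detected on 2 control and 2 furan arrays at 3 weeks and was not tested. Cdk1 differed by 0.20 (SE 0.15) by A_55_P2016652, detected on 1 array of each treatment, and A_55_P2048588 was detected on no array at 3 weeks. Fen1, detected on no control array and all 4 furan arrays, differed by 0.48 (SE 0.16, adjusted p = 0.223) in values that include signal near background. E2f1 differed by 0.49 (SE 0.14) and the second probe of Rfc4 by 0.46 (SE 0.13), and these 2 passed the test after median centring with adjusted p of 0.0225 and 0.0478. Cdca3, detected on no control array and on 3 furan arrays, differed by 0.52 (SE 0.19, adjusted p = 0.276) in values that include signal near background, and was called without control 4, with an adjusted p of 0.0356.

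**Figure D4:**
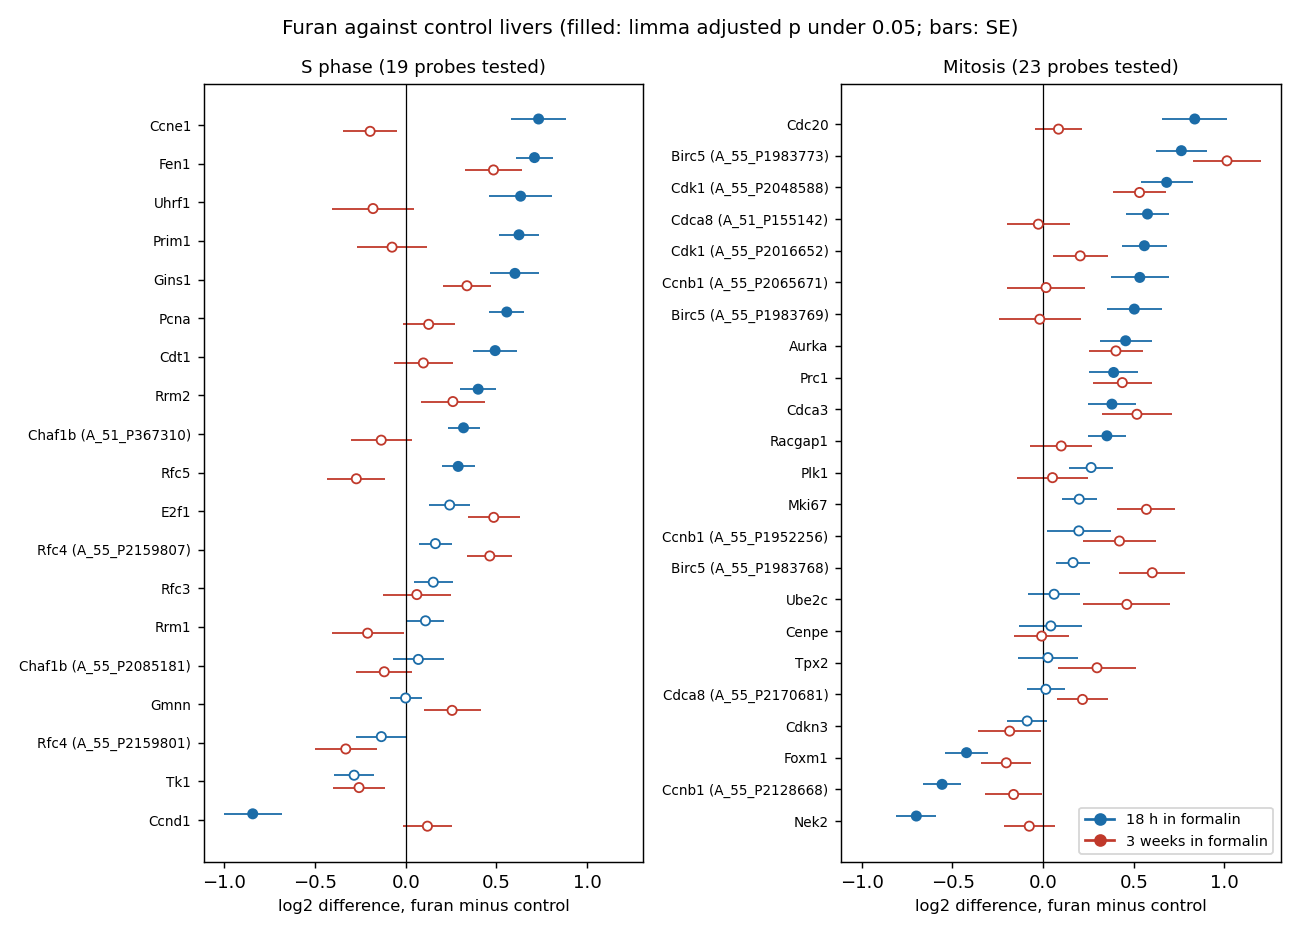
Log2 difference between furan and control livers for each of 42 tested probes, S phase at left and mitosis at right, at 18 h (blue) and 3 weeks (red); bars are SE and filled points have a limma adjusted p under 0.05. At 18 h 21 probes are called higher and 4 lower, and at 3 weeks none is called.

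A call at 18 h and none at 3 weeks does not show that the effect of furan differed, so the difference of the 2 effects was tested over all 15 samples. Limma called 4 of 42 member probes, 1 higher and 3 lower, against 7.82% of all probes higher and 4.93% lower. That is 9.52% of the member probes against 12.8% of all probes, so the members' share was not above the background. The split over all probes was 61.3% higher after loess, 27.5% after median centring and 44% in the authors' deposited table. The effect on Ccnd1 was higher at 3 weeks than at 18 h by 0.96 (SE 0.21, adjusted p = 0.00911). At 3 weeks Ccnd1 stood at -0.64, -0.62 and -0.42 in controls and at -0.39, -0.31, -0.52 and -0.53 with furan, overlapping groups with a difference of 0.12 (SE 0.14).

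The effect on Ccne1 was lower at 3 weeks by 0.93 (SE 0.22, limma adjusted p = 0.0122), that on Cdc20 by 0.75 (SE 0.23, adjusted p = 0.0415) and that on Rfc5 by 0.56 (SE 0.17, adjusted p = 0.0436). At 3 weeks their differences between furan and control were -0.20 (SE 0.15), 0.09 (SE 0.13) and -0.27 (SE 0.16). Ccne1 was above background there on 1 control array and no furan array, so its 3-week value is near background and the size of its difference of effects is not well measured. Cdc20 and Rfc5 were detected on all arrays. Ccnd1 was called in all 29 alternatives, Ccne1 in all but the stricter threshold of 0.01, and Cdc20 and Rfc5 in 13 of 29 each, neither of them with the replicate block (adjusted p = 0.0635 and 0.0758). The count of 4 fell to 2 without 18 h control 2, 18 h control 6, 18 h furan sample 42 or 3-week control 6.

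The time in formalin was compared within each treatment, with samples that also enter the furan comparisons. In control livers limma called 10 member probes higher and 4 lower at 3 weeks than at 18 h, against 28.5% of all probes higher and 30.8% lower. In furan livers it called 10 higher and 11 lower, against 35.1% higher and 32% lower. The S phase list gave 5 higher and 3 lower in controls and 4 higher and 8 lower with furan, and the mitosis list 5 and 1 and then 6 and 3. Over all probes the split was 48.1% higher in control livers, or 24.4% after median centring, and 52.3% in furan livers, or 23.3%. Median centring moved the median of all probes from -0.0001 to -0.24 in controls and from 0.03 to -0.29 with furan, and Agilent's own log ratios gave -0.16 and -0.11.

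Members that are detected on all arrays moved by up to a log2 unit or more with time. Ccnd1 fell by 1.21 (SE 0.16, limma adjusted p = 5.16e-06) in control livers and differed by -0.25 (SE 0.15, adjusted p = 0.147) in furan livers. Tk1 fell by 1.11 (SE 0.13) in control livers and 1.08 (SE 0.12) in furan livers, with adjusted p of 1.41e-06 and 6.69e-07. Rfc4 by A_55_P2159801 rose by 1.40 (SE 0.16) and 1.20 (SE 0.15), while its other probe differed by -0.29 (SE 0.13) and 0.01 (SE 0.12), neither called.

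E2f1 rose by 0.95 (SE 0.13, adjusted p = 8.81e-06) in control livers and 1.20 (SE 0.12, adjusted p = 2.33e-07) in furan livers. It stood at -0.28, 0.03, -0.20 and -0.25 in 18 h controls and at 0.59, 0.80 and 0.94 in 3-week controls, so the times did not overlap. In control livers 9 member probes lay wholly higher and 4 wholly lower at 3 weeks, against 8496 and 8915 of all 29690 tested. Birc5 by A_55_P1983773 rose by 0.83 (SE 0.18) in control livers and 1.08 (SE 0.16) in furan livers, but after median centring its differences were 0.23 and 0.27 and did not pass the test. Chaf1b by A_51_P367310 rose by 1.06 (SE 0.13) and 0.60 (SE 0.12).

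Most of the S phase probes called lower with time in furan livers were dim at 3 weeks. Ccne1, Cdt1, Gins1, Prim1 and Rrm2 were above background on all 4 furan arrays at 18 h and on none at 3 weeks. At 3 weeks, by the rough bound, Cdt1 was at least 1.46-fold and Prim1 at least 1.26-fold lower, and the mitosis gene Cdca8 by A_51_P155142 was at least 1.30-fold lower. For Ccne1, Gins1 and Rrm2 no bound is given, since it exceeded the fold of the log ratio. Among mitosis probes Cdc20 fell by 0.58 (SE 0.16, limma adjusted p = 0.00373) and Racgap1 by 0.59 (SE 0.16, adjusted p = 0.00388) in furan livers. Nek2 rose by 0.56 (SE 0.15) in control livers and 1.19 (SE 0.14) in furan livers after loess. After median centring its differences were -0.07 and 0.36, and neither passed the test. Foxm1 rose by 0.51 (SE 0.12, adjusted p = 0.00117) in furan livers after loess and differed by -0.35 after median centring, and Pcna rose by 0.31 (SE 0.12, adjusted p = 0.0319) in control livers after loess and differed by -0.13 after median centring.

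**Figure D5:**
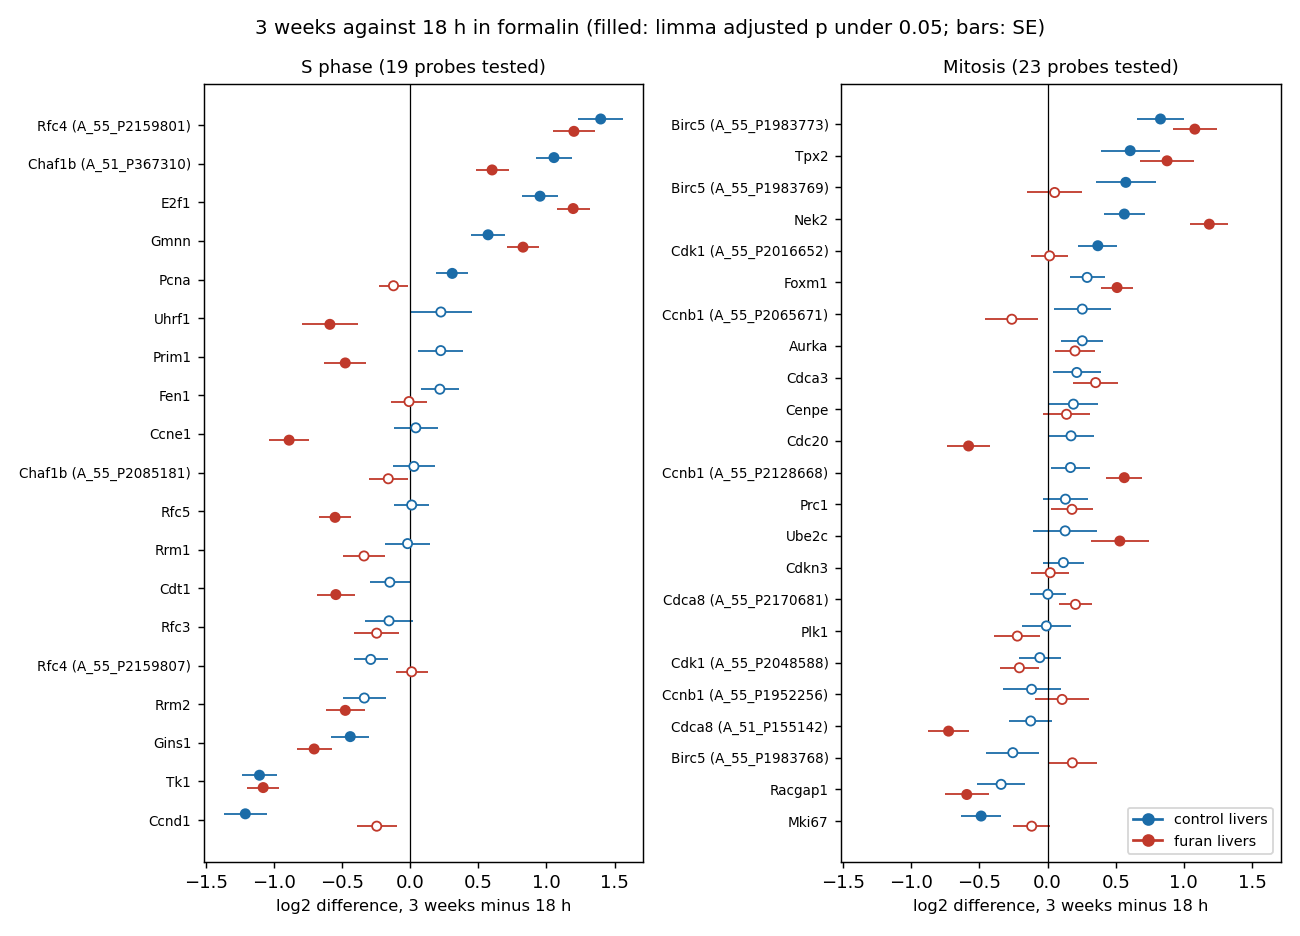
Log2 difference between 3 weeks and 18 h in formalin for each of 42 tested probes, S phase at left and mitosis at right, in control livers (blue) and furan livers (red); bars are SE and filled points have a limma adjusted p under 0.05. Rfc4 by 1 probe lies highest in both treatments, Ccnd1 lies lowest in control livers and Tk1 in furan livers.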

How the data were processed

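Each array carried liver RNA in Cy5 and a pool of all samples in Cy3 on an Agilent mouse array (design on build mm9), read with Agilent Feature Extraction 11.0.1.1, per the file headers. The deposited scanner files hold spot and background intensity, on a linear scale, and a log10 ratio of Cy5 over Cy3, per the file headers. The authors' deposited table was read as log2 ratios of liver sample over reference, with the log base and normalization not given in the sources used here. Its columns correlated with the loess values at 0.856 to 0.978, which gives the direction, and had medians of -0.00919 to 0.0247. Their SD was 0.733 to 0.822 of that of the loess values, which does not settle the log base, and the centring stays unknown.

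Here, in R 4.3.3 with limma 3.58.1, median intensities were corrected with normexp (offset 50) and normalized within arrays by loess, control spots having no weight and 187 to 308 outlier spots an array being left out. Spots of 1 probe were averaged, and different probes of a gene were kept apart. Of 55681 probes, 27235 matched a symbol by accession and 28446 did not. Probes well above background in Cy5 on at least 3 arrays of 1 group were kept, which left 29690. Differences were tested two-sided with lmFit and eBayes, the slide as a term, at a Benjamini-Hochberg adjusted p of 0.05, in 4 against 4 samples at 18 h, 4 against 3 at 3 weeks and 15 samples for the other 3 comparisons. Control arrays 2.1 and 2.2 at 3 weeks were averaged. Replicate numbers are shared across times, and over probes the deviations of same-numbered samples correlated at 0.019 to 0.182. The main fits used no pairing, so the tests of time and of the difference take these samples as independent. A block for the replicate number was run as an alternative. P-values set each difference against the spread between these samples, and the number of arrays limits the precision.

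Named genes were, per list, up to 12 with the smallest adjusted p among those called for furan at 18 h, members called at 3 weeks or for the difference, members with opposite calls, and, whatever their values, Mki67, Top2a, Cdk1, Ccna2, Ccnb1, Plk1, Foxm1, Pcna, Rrm2, Cdc6, Ccne1, E2f1 and Ccnd1. From each further pathway list up to 3 with the smallest adjusted p and Cdkn1a were named. Other members that are named to complete their role, or for time in formalin, were chosen after their values were seen. The members and lists were chosen with earlier results of these data known. Alternatives were other background corrections, scalings, filters, variance models and thresholds, each slide alone, each sample left out and the share of detected probes as a covariate. The fits were run on simulated data with independent noise and few changed probes. That setting holds no shift between arrays, so it checks the calculation and not the calls made here. Promoters were searched with Python 3.11.15, and windows on chromosome 18 were left out of those printed but not of the counts.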

Additional observations from a re-analysis of the deposited data

Results flagged for a closer look

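By the test of the difference itself, the furan effect was called different between the times in formalin for 4 of 42 member probes, 9.52% against 12.8% of all probes, and for 2 with the replicate block. The difference, 3 weeks minus 18 h, was 0.96 for Ccnd1, -0.93 for Ccne1, -0.56 for Rfc5 and -0.75 for Cdc20 on the log2 scale. For Ccne1 the 3-week values are near background, with 1 control array and no furan array above it. Rfc5 and Cdc20 were called in 13 of 29 alternatives each and lost with the replicate block.

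In 6 probes 1 sample lay far from the other 3 of its group, with a gap to the nearest that took more of the group's range than Dixon's critical value. The gap over range was 0.964 for Prim1, where 18 h control 4 stood at -0.02 and the others between -0.35 and -0.33. It was 0.891 for Birc5 by A_55_P1983769, where 18 h control 6 stood at -0.51 and the others between -0.06 and -0.01. It was 0.884 for Cdc20, where 18 h control 6 stood at -0.92 and the others between -0.54 and -0.49. Furan sample 41 stood apart at 18 h for Uhrf1 (0.886), at -0.19 against 0.48 to 0.57, and for Ccnb1 by A_55_P2128668 (0.884), at -1.17 against -0.81 to -0.76. It also stood apart at 3 weeks for Rrm2 (0.884), at -0.72 against 0.03 to 0.13, where no array showed that probe above background.

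In the count of detected S phase probes, furan sample 41 stood at 22 against 20 in each other furan sample at 18 h and at 11 against 12 at 3 weeks. These are whole counts with ties, so the gap over range is 1 for a gap of any size and says nothing of how far that sample stood apart. In all 8 of 104 groups of values tested met this criterion, and chance gives about 1 in 20.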

How the results depend on the processing

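Counts are of called member probes. At 18 h the main counts were 10 S phase probes higher and 1 lower and 11 mitosis probes higher and 3 lower. S phase probes called lower were 2 without background subtraction, with detection on every array of a group, with trended and robust variances and with array weights, and 0 after median centring, where mitosis probes called lower were 1. Mitosis probes called higher were 7 with 1 probe per gene and 5 at a threshold of 0.01. With the share of detected probes as a covariate all 4 counts were 0. Slide 1 alone called 3 S phase and 1 mitosis probes higher. Leaving out 1 sample gave 9 to 10 and 1 to 2 for S phase and 6 to 11 and 3 to 3 for mitosis.

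At 3 weeks, with 0 called, limma called 1 without background subtraction, in the authors' values, with arrays 2.1 and 2.2 apart and on slide 2 alone, 3 after median centring, and 0 to 2 without 1 sample. For the difference of effects, with 4 called, it called 7 in the authors' values, 2 without the filter, 1 at a threshold of 0.01, 2 with the replicate block and 2 to 5 without 1 sample. For time in control livers, with 14 called, it called 9 at a threshold of 0.01, 5 with the covariate, 9 with the replicate block and 11 to 15 without 1 sample. For time in furan livers, with 21 called, it called 4 with the covariate, 22 with the replicate block and 19 to 22 without 1 sample. Same-numbered samples correlated best with each other in 5 of 7 pairs, a hint from the data and not from the design.

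Some called probes changed sign, and the cause was not tested. After median centring this held for Foxm1 at 18 h (0.0039) and for time in furan livers (-0.35), and for Pcna (-0.13) and Nek2 (-0.070) for time in control livers. With the covariate at 18 h it held for Gins1 (-0.11), Uhrf1 (-0.28), Aurka (-0.076), Birc5 by A_55_P1983769 (-0.10), Cdk1 by A_55_P2016652 (-0.012) and Ccnb1 by A_55_P2065671 (-0.31). With the covariate it held for time in control livers for Gins1 (0.31), Tpx2 (-0.33) and Mki67 (0.10), and for time in furan livers for Gins1 (0.19), Rrm2 (0.26), Cdca8 (0.23), Tpx2 (-0.24) and Racgap1 (0.036). Signal over background limits what could be seen, since 31 of 73 member probes were not tested.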
